A study of Zea mays with 10 samples.

Results

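The transcripts described here are the 200 most abundant genes of the maize shoot apex, among the genes that the expression table lists without a name, whose level was similar in *lbl1* mutant and wild-type (WT) plants. They were chosen by their values: the row had no entry in the table's gene name column, the ratio of its RPKM in *lbl1* to its RPKM in WT lay between 0.67 and 1.5, and its WT RPKM was among the 200 highest. RPKM counts the reads of a gene relative to its transcript length and to the total of mapped reads, so that levels can be compared between genes. The table holds 109874 rows, of which 108209 have no gene name, and 19175 of the unnamed rows met the ratio limits. All level and ratio values of the members are therefore a description of what the rule selected, and no test was made on them.

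The mutant plants were homozygous for *lbl1-rgd1*, a mutant allele of *leafbladeless1* introgressed at least 3 times into the inbred line B73, and the WT plants are labelled B73. For both genotypes the labels name families in which the allele segregated. Seedlings were 2 weeks old, and the dissected apex held the meristem with the youngest leaf primordia, 5 at most. Messenger RNA was sequenced from 2 samples of each genotype. The authors' value for a genotype covers both of its samples, so no SD, n or replicate check can be given for any level below. Apices are a mixture of cells, in which fewer cells of a type and less RNA per cell cannot be told apart.

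LBL1 takes part in the production of trans-acting siRNAs, small RNAs that restrict the *ARF3* transcription factors to the lower side of the leaf. The *lbl1* transcript itself (GRMZM2G020187, chromosome 6, 17165362 to 17171793 on B73 RefGen_v2) was at 226 RPKM in *lbl1* and 301 RPKM in WT. Only 7 of the 17 tissue markers were matched by name. Of the meristem markers, the homeobox gene LG3 was at 51.3 RPKM in *lbl1* and 25.6 RPKM in WT. The leaf primordium marker RS2, a MYB gene, was at 39.0 RPKM in both, and mwp1 at 3.84 RPKM in *lbl1* and 6.97 RPKM in WT. Of the markers of mature C4 leaf, PEP1 was listed at 0 in both genotypes, PPDK1 was at 6.32 RPKM in *lbl1* and 1.35 RPKM in WT, and CAB1 at 61.3 RPKM in *lbl1* and 40.5 RPKM in WT. The summed level of the 3 C4 leaf markers was 67.6 RPKM in *lbl1* and 41.8 RPKM in WT, and the part of this difference in the values below was not tested.

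A shoot apex is a tissue of small, dividing and growing cells. Such cells make large amounts of the transcripts for ribosomal proteins and translation factors, which build new protein, and for histones, which pack newly copied DNA. Cytoskeletal proteins, chaperones and redox proteins such as thioredoxins are made at high level in most plant cells. Transcripts of this kind are often used as references against which other genes are measured, which makes their own behaviour in a mutant of interest.

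The 200 members made up 0.182% of the rows and held 15.7% of all RPKM in *lbl1* and 15.5% in WT. Their levels ran from 321 to 6468 RPKM in *lbl1*, with a median of 624 RPKM, and from 398 to 7257 RPKM in WT, with a median of 590 RPKM. For comparison, the median over the 24760 rows with at least 1 RPKM in both genotypes was 13.7 RPKM in *lbl1* and 14.7 RPKM in WT. The levels were unequally spread within the group. The 10 highest members held 19.9% of the group's summed RPKM in *lbl1* and 19.4% in WT, and the 50 highest held 48.9% in *lbl1* and 47.6% in WT. At least 1000 RPKM was reached by 40 members in *lbl1* and by 33 in WT.

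**Figure D1:**
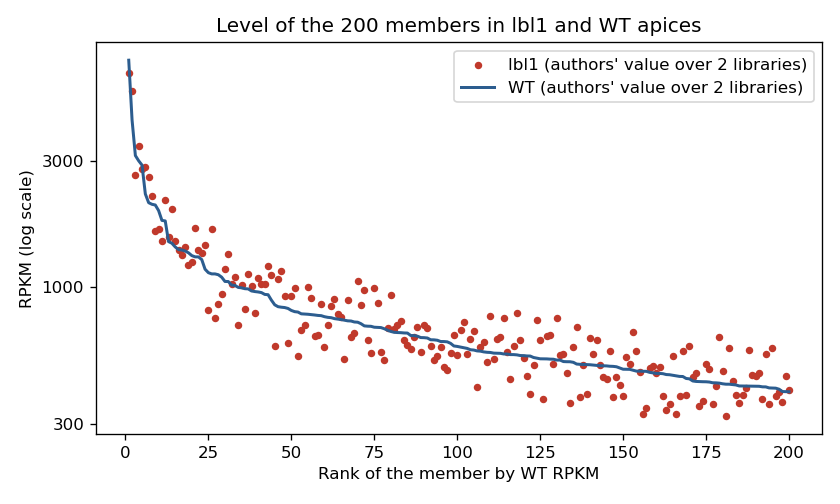
RPKM (log scale) of each of the 200 members against its rank by WT RPKM, with *lbl1* as points and WT as a line, each the authors' value over 2 libraries. The *lbl1* points scatter on both sides of the WT line along the whole range, within the limits of 0.67 and 1.5 that the rule set.

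The most abundant member was GRMZM5G849427 (chromosome 4, 199076122 to 199077395), with 6468 RPKM in *lbl1* and 7257 RPKM in WT. GRMZM2G303374 (chromosome 4, 237258367 to 237272398) was next, with 5546 RPKM in *lbl1* and 4299 RPKM in WT. These genes stood apart from the rest of the list in *lbl1*, where the next level was 3424 RPKM for GRMZM5G850966 on chromosome 6, which had 3006 RPKM in WT. GRMZM2G031545 on chromosome 7 had 2662 RPKM in *lbl1* and 3149 RPKM in WT. GRMZM2G144387 on chromosome 1 had 2792 RPKM in *lbl1* and 2896 RPKM in WT. None of these genes has a descriptive name in the table or in RefSeq, so no role is given for them.

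The sixth was *grp1* (GRMZM2G080603, chromosome 1, 178476591 to 178478157), named for a glycine-rich protein, with 2850 RPKM in *lbl1* and 2250 RPKM in WT. GRMZM2G088511 on chromosome 4 had 2618 RPKM in *lbl1* and 2084 RPKM in WT, and GRMZM5G877729 on chromosome 2 had 2215 RPKM in *lbl1* and 2055 RPKM in WT. The list of the 10 highest ended with 2 genes that were lower in *lbl1*. These were GRMZM2G047748 on chromosome 10, with 1634 RPKM in *lbl1* and 2042 RPKM in WT, and GRMZM2G108348 on chromosome 3, with 1654 RPKM in *lbl1* and 1945 RPKM in WT. The order of the members was similar in the 2 genotypes, which the ratio limits of the rule favour, so nothing is read from it. Of the 10 highest members in *lbl1*, 8 were among the 10 highest in WT, and 42 of the 50 highest were shared. The median member differed by 17 ranks between the genotypes, and the largest shift was 86 ranks, for GRMZM2G057608.

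Within the window, the ratio of *lbl1* to WT had a median of 1.03, that is 0.04 on the log2 scale, with an SD over the members of 0.28 on that scale. It lay between 0.868 at the 25th and 1.15 at the 75th percentile. The level was higher in *lbl1* for 110 members and lower for 90, so that 55.0% were higher, where 42.6% of the 24760 rows with at least 1 RPKM in both genotypes had a ratio above 1. The median log2 ratio of those rows was −0.10. Set against that median, 129 members lay above it and 71 below, since 19 members were lower in *lbl1* by less than the median row. A ratio of 1.2 or more was found in 39 members, against 25.5% of those rows, and one of 0.8 or less in 28 members, against 33.6% of those rows. The window itself limits these counts, and nothing is read from them. For 70 members the ratio was between 0.9 and 1.1.

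**Figure D2:**
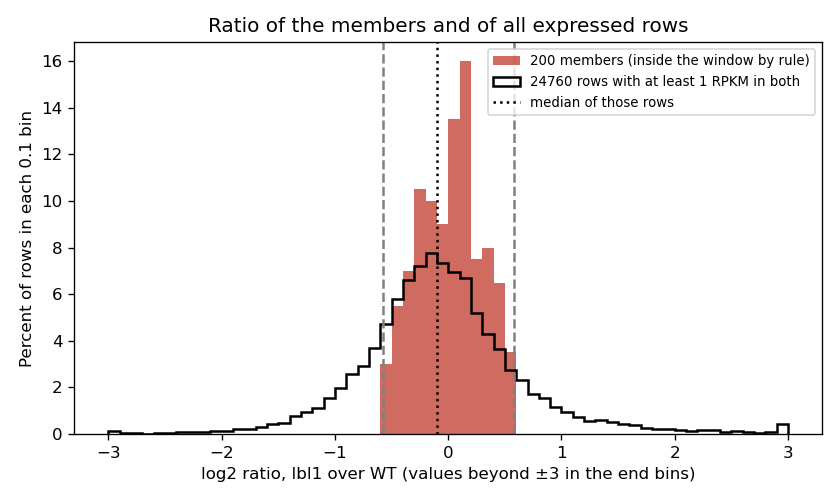
Percent of rows in each bin of the log2 ratio, *lbl1* over WT, for the 200 members (filled) and for the 24760 rows with at least 1 RPKM in both genotypes (line). Dashed lines mark the rule's limits of 0.67 and 1.5, which cut the members off on both sides. The dotted line is the median of the rows, −0.10, and the members' median is 0.04.

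The group was cut out of a continuous range of ratios. The members with the highest ratios were GRMZM2G057608 (641 RPKM in *lbl1* and 429 RPKM in WT, ratio 1.49), GRMZM2G083253 (1654 RPKM in *lbl1* and 1117 RPKM in WT, ratio 1.48) and GRMZM2G116135 (760 RPKM in *lbl1* and 525 RPKM in WT, ratio 1.446). Just outside was GRMZM5G837108, with 813 RPKM in *lbl1* and 540 RPKM in WT and a ratio of 1.51. At the lower end, *LTP3* had a ratio of 0.680, GRMZM2G150648 (544 RPKM in *lbl1* and 799.9 RPKM in WT) also 0.680, and the histone gene *his2b2* 0.691. The first row below the window was GRMZM2G171387, with 324 RPKM in *lbl1*, 491 RPKM in WT and a ratio of 0.659. Nearest to a ratio of 1 was GRMZM2G124317 with 1382 RPKM in each genotype, then GRMZM2G140799 with 502 RPKM in *lbl1* and 500.02 RPKM in WT, and GRMZM2G172244 with 504 RPKM in *lbl1* and 506 RPKM in WT. The level limit was as close: rank 200, AC225147.4_FG002, had 403 RPKM in *lbl1* and 398 RPKM in WT, and the first gene left out, GRMZM2G009555, had 359 RPKM in *lbl1* and 398 RPKM in WT.

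Of the 249 unnamed rows that reached the WT level of the lowest member, the 200 members are the 80.3% inside the ratio window. A ratio above 1.5 left out 24 rows and a ratio below 0.67 left out 25. The share inside the window was 67.6% over all rows with at least 1 RPKM in both genotypes, and 91.4% over the 70 named rows at the members' level, of which 64 were inside. Among unnamed rows it was 56.2% at 1 to 10 RPKM in WT, 74.5% at 10 to 100 RPKM and 76.6% at 100 to 398 RPKM. Grouped by *lbl1* RPKM instead, it was 55.6%, 76.1% and 73.4% in the same bins and 73.2% at 398 RPKM or more. Above 10 RPKM the share therefore rose with level only when rows were grouped by WT RPKM. The most abundant row left out for its ratio was GRMZM5G836166, with 5673 RPKM in *lbl1* and 9593 RPKM in WT, a ratio of 0.591. It overlaps *grp1*. On the higher side it was GRMZM2G588961, with 3216 RPKM in *lbl1* and 1374 RPKM in WT, a ratio of 2.34, listed at the locus of the most abundant member.

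For 158 members (79.0%) the identifier was found among the RefSeq synonyms of the current B73 annotation, where all were protein coding. The same was true of 56.9% of the 24760 rows. A name that tells something of the product was given there for 28 members, and the other 172 have only clone or database names. The roles below come from these names. Of the 28 members, 11 were higher and 17 lower in *lbl1*, with a median log2 ratio of −0.10, and 14 lay above the median of all rows.

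Ribosomal protein names were carried by 5 of the 158 matched members, or 3.16% (Wilson 95% interval 1.36 to 7.19%, which covers counting error only). The same names occurred in 31 of the 13939 other matched rows, or 0.222%. Since most members have no descriptive name, this is a count of names and not of all ribosomal protein genes. The members were chosen for a high level and for lacking a gene name, and the other rows start at 1 RPKM. These shares are therefore not alike in level, and nothing is read from the gap. By the name patterns used below, 17 ribosomal rows reached the WT level of the lowest member, and 4 of them are members. *rps27* (GRMZM2G066222), for a protein of the small subunit, had 1162 RPKM in *lbl1* and 1046 RPKM in WT. *rpl32* (GRMZM2G110328), for one of the large subunit, had 467 RPKM in *lbl1* and 418 RPKM in WT. *rpp2a-4* (GRMZM2G075630), named for an acidic protein of the ribosomal stalk, had 584 RPKM in *lbl1* and 411 RPKM in WT, which at a ratio of 1.42 was the farthest from 1 of the 5. *rps12* (GRMZM2G063340), whose name is also that of a plastid gene, had 460 RPKM in *lbl1* and 418 RPKM in WT. GRMZM2G047732, which RefSeq lists under RPS27A, RPL27A and UBF9, had 684 RPKM in *lbl1* and 788 RPKM in WT. Thus 4 of the 5 were higher in *lbl1*, and the same 4 lay above the median of all rows. Among all members, 110 were higher and 90 lower, and 129 lay above that median and 71 below.

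The translation factors were *elfa3* (GRMZM2G154218), named for elongation factor 1 alpha, which brings charged tRNAs to the ribosome, and *tif-4A3* (GRMZM2G027995), named for the RNA helicase of translation initiation. *elfa3* had 438 RPKM in *lbl1* and 424 RPKM in WT. *tif-4A3* had 321 RPKM in *lbl1*, the lowest *lbl1* level of all members, and 425 RPKM in WT.

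The 6 members with names of chromatin proteins were all lower in *lbl1*, and 5 of them lay below the median of all rows. *HMGc2* (GRMZM2G156785), for a high mobility group protein that bends DNA, had 597 RPKM in *lbl1* and 852 RPKM in WT. *his2b2* (GRMZM2G119071), for the core histone H2B, had 329 RPKM in *lbl1* and 476 RPKM in WT. The linker histone gene *hon110* (GRMZM2G164020) had 375 RPKM in *lbl1* and 531 RPKM in WT. *HMGIY2* (GRMZM2G106133), for another DNA-binding protein of the high mobility group type, had 329 RPKM in *lbl1* and 457 RPKM in WT. The ratios of these 4 genes ran from 0.691 to 0.7197. The H2B genes *his2b5* (GRMZM2G342515), with 515 RPKM in *lbl1* and 562 RPKM in WT, and *histone2b1* (GRMZM2G071959), with 410 RPKM in *lbl1* and 418 RPKM in WT, were closer to 1, and *histone2b1* lay above the median of all rows.

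*Actin-7* (GRMZM2G067985), a cytoskeletal gene, had 385 RPKM in *lbl1* and 485 RPKM in WT. The chaperone gene *hsp70-4* (GRMZM2G340251), whose product helps other proteins fold, had 715 RPKM in *lbl1* and 993 RPKM in WT. *ndpk1* (GRMZM2G178576), named for nucleoside diphosphate kinase, which keeps the pools of nucleoside triphosphates in balance, had 1488 RPKM in *lbl1* and 1415 RPKM in WT. Its identifier is listed under 3 RefSeq genes.

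Of 4 members with names of redox proteins, *grx1* (GRMZM2G150295), for a glutaredoxin, was higher in *lbl1*, with 541 RPKM against 485 RPKM in WT. The others were lower. *CSD4* (GRMZM5G895313), for a copper and zinc superoxide dismutase, had 494 RPKM in *lbl1* and 618 RPKM in WT. The thioredoxin h gene *trh1* (GRMZM2G079089) had 384 RPKM in *lbl1* and 466 RPKM in WT, and *trxh1* (GRMZM2G424053) had 357 RPKM in *lbl1* and 431 RPKM in WT.

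Genes named for secreted proteins lay on both sides of a ratio of 1. *DEF1* (GRMZM2G153488), named for a defensin, a small antimicrobial protein, had 970.4 RPKM in *lbl1* and 709 RPKM in WT, a ratio of 1.37. *grp1*, whose name does not settle a role, had a ratio of 1.27. *LTP3* (GRMZM2G126397), for a lipid transfer protein of the kind found at the plant surface, had 760 RPKM in *lbl1* and 1117 RPKM in WT. Its ratio of 0.680 was the lowest of the 200 members. Of the genes for regulators of transcription, *MBF1.3* (GRMZM5G800112), named for a multiprotein bridging factor, a co-activator, had 569 RPKM in *lbl1* and 477 RPKM in WT. *tunicate1* (GRMZM2G370777), the MADS-box gene of the pod corn mutant, had 379 RPKM in *lbl1* and 497 RPKM in WT. The remaining named members also have names that do not settle a role. GRMZM2G157443 (644 RPKM in *lbl1* and 651 RPKM in WT) and GRMZM2G343543 (532 RPKM in *lbl1* and 558 RPKM in WT) were lower than in WT by less than the median row. GRMZM2G149751 had 570.3 RPKM in *lbl1* and 498 RPKM in WT.

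**Figure D3:**
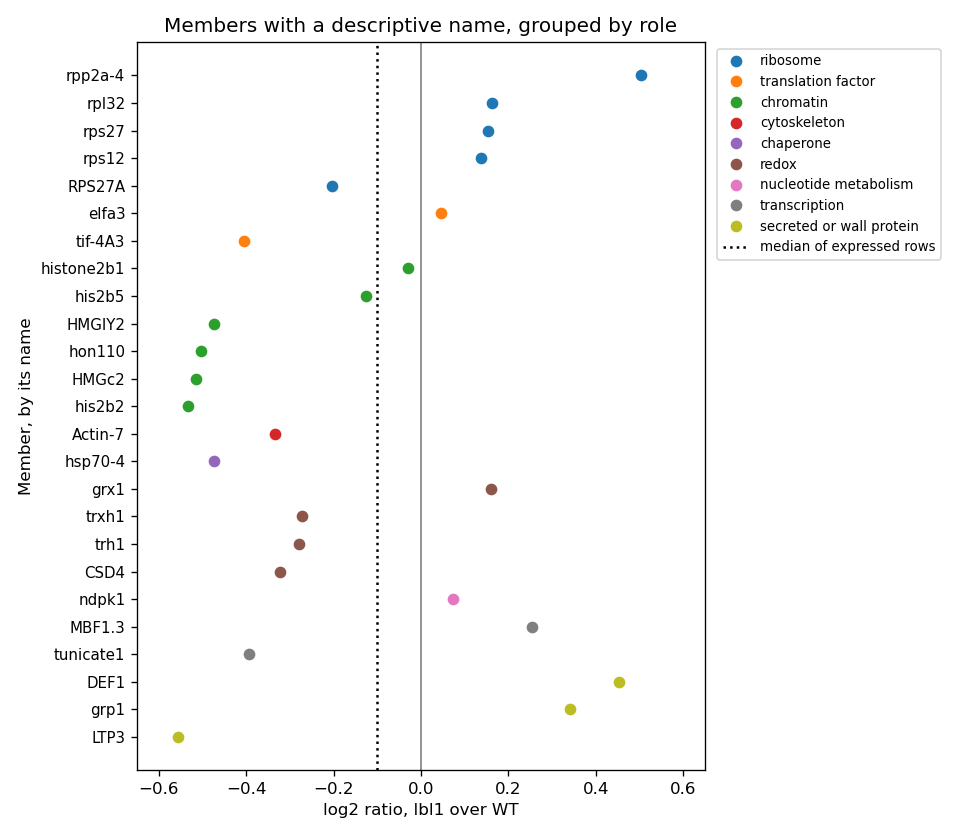
Log2 ratio, *lbl1* over WT, of the 25 members placed in a role by their names, 1 point for each gene, coloured by role. The name of *grp1*, drawn with the secreted or wall proteins, does not settle its role. The solid line is a ratio of 1 and the dotted line the median of the 24760 expressed rows, −0.10. The 6 chromatin genes are left of the solid line, and 4 of the 5 ribosomal genes right of it.

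The same name patterns were applied to all nuclear rows with at least 1 RPKM in both genotypes, with no limit on ratio or level. Of 40 rows with a ribosomal protein name, 29 were higher and 11 lower in *lbl1*, with a median log2 ratio of 0.16, and 32 lay above the median of all rows. Only 4 of these rows are members, since *rps12* was left out for its plastid namesake. The 36 others had a median of 0.16 as well. Examples are RPS28 (GRMZM2G455828), with 953 RPKM in *lbl1* and 681 RPKM in WT, and RPP1A (GRMZM2G032315), with 951 RPKM in *lbl1* and 708 RPKM in WT. RPP3A (GRMZM2G077208) was in the other direction, with 872 RPKM in *lbl1* and 1083 RPKM in WT. A ribosomal protein name was carried by 17 rows that reached the WT level of the lowest member. Of these 17 rows, 11 were higher and 6 lower in *lbl1*, with a median of 0.15, against 0.04 for the members. The median of all rows lay below 11 of them and above 6, where it lay below 129 members and above 71. By that count, ribosomal names were not set apart from the members at this level.

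Of 39 rows named as histones or high mobility group proteins, 10 were higher and 29 lower in *lbl1*, with a median of −0.14, against −0.10 for all rows. Below the median of all rows were 26 of them. The 33 rows that are not members had a median of −0.13. They include 15 rows that share the name H4C13, for histone H4, of which 4 were higher and 11 lower. Copies of histone genes are near identical, and since only uniquely mapped reads were counted, reads that fit several copies are missing from these levels. The unnamed row *his1a* (GRMZM2G401308), left out for a ratio of 0.633, had 1157 RPKM in *lbl1* and 1826 RPKM in WT. The median of the 6 members, −0.49, was lower than that of the family. Of the family, 28 rows reached the WT level of the lowest member, and 5 of these were outside the ratio window. Among the 28 rows, 5 were higher and 23 lower in *lbl1*, with a median of −0.20, against 0.04 for all members of the list. The median of all rows lay above 21 of them and below 7, where it lay above 71 members of the list and below 129.

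Of 18 tubulin and actin rows, 2 were higher and 16 lower in *lbl1*, with a median of −0.45, and the same 16 lay below the median of all rows. *Actin-7* is the only member of that family. The highest was TUBA4 (GRMZM2G152466), for an alpha tubulin of the microtubules, with 1093 RPKM in *lbl1* and 1664 RPKM in WT. The 10 translation factor rows were divided, 5 higher and 5 lower, with a median of 0.01. Of the 4 thioredoxin and glutaredoxin rows, 3 are members. These families have 1 value per genotype, and none of the differences was tested.

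**Figure D4:**
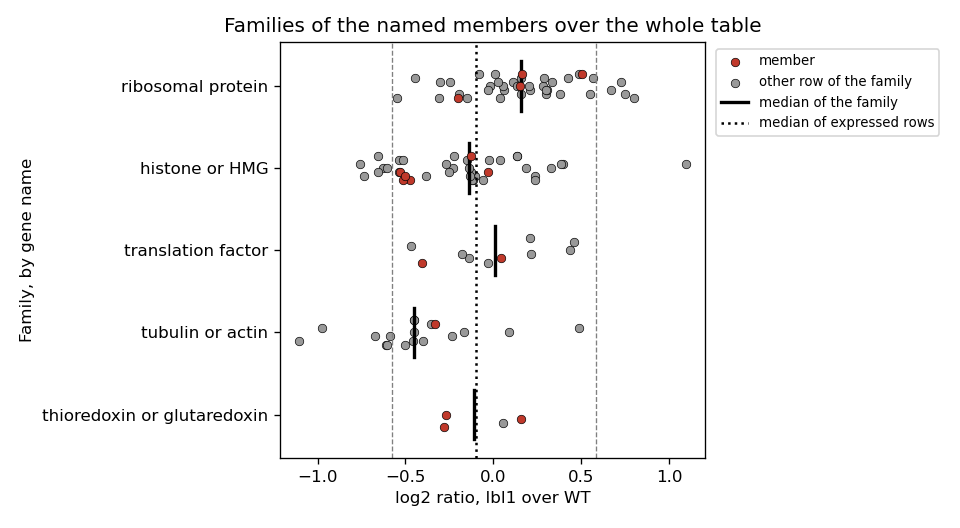
Log2 ratio, *lbl1* over WT, of every nuclear row with a family name and at least 1 RPKM in both genotypes, with members in red and other rows in grey. Black bars are family medians, 0.16 for ribosomal proteins, −0.14 for histones and high mobility group proteins and −0.45 for tubulins and actins. The dotted line is the median of all expressed rows, −0.10, and the dashed lines are the rule's limits.

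The study used *gapc* transcripts as the reference in its quantitative PCR. They have names in the table and so cannot be members. GAPC1 was at 956 RPKM in *lbl1* and 893 RPKM in WT (ratio 1.07), GAPC2 at 723 RPKM in *lbl1* and 624 RPKM in WT (ratio 1.16), and GAPC3 at 249 RPKM in *lbl1* and 134 RPKM in WT (ratio 1.86). Which of the copies the primers amplify was not analysed here.

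The genomic loci of the members were shorter than those of the median expressed row. Their median span was 2436 bases, with 1781 and 3535 bases at the 25th and 75th percentiles, against a median of 3603 bases for the rows with at least 1 RPKM in both genotypes. The same held for genes with no overlapping row, with 2315 bases over 134 members and 3300 bases over 17787 rows. Among unnamed rows grouped by WT RPKM, the median span was 2530.5 bases at 1 to 10 RPKM and 4336 bases at 10 to 100 RPKM. It was 3734 bases at 100 to 398 RPKM and 2330 bases at 398 RPKM or more. Short loci were therefore not particular to the members. The span includes introns and is not the transcript length by which RPKM is divided. Where rows share a locus, it may cover more than 1 gene. In 11 members the locus was under 1000 bases, and in 2 it was under 300 bases. AC155610.2_FG009 on chromosome 3 spans 204 bases (175701336 to 175701539) and had 1543 RPKM in *lbl1* and 1482 RPKM in WT. GRMZM2G115160 on chromosome 4 spans 153 bases (143625333 to 143625485) and had 1018 RPKM in *lbl1* and 989 RPKM in WT. A small number of reads gives a high RPKM at such a length, and the reads behind these values are unknown. The longest locus, of 137479 bases, was listed for GRMZM2G116292 on chromosome 1 (715 RPKM in *lbl1* and 639 RPKM in WT). The loci of 2 rows below 1 RPKM overlap it, so it may not be the span of this gene alone.

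Overlaps bear on the values themselves, since reads of overlapping genes could be divided between them. Overlap here means that of the listed loci. In the 5 pairs of members that share a locus, both genes are listed with the same start and end, as are *grp1* and its partner. Such coordinates may be those of a region with several genes, so whether the genes themselves overlap is not known here. At least 1 other row overlapped 66 members (33.0%), compared with 28.2% of the rows with at least 1 RPKM in both genotypes, and for 56 members such a row reached 1 RPKM in either genotype. In 28 members the overlapping rows held at least 10% of the summed WT RPKM of the locus. The largest of these rows was itself outside the ratio window in 10 of the 28, above it in 4 and below it in 6. When the RPKM values of a locus were summed, the ratio was inside the window for 25 of the 28. Such a sum adds values that were each divided by their own transcript length, so a short row weighs more, and its ratio is not the fold change of the reads of the locus.

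The clearest cases are among the most abundant members. *grp1* was higher in *lbl1*, at 2850 RPKM against 2250 RPKM in WT, whereas GRMZM5G836166 in the same locus was lower, at 5673 RPKM in *lbl1* and 9593 RPKM in WT. Their sum was 8523 RPKM in *lbl1* and 11843 RPKM in WT, a ratio of 0.7196. GRMZM5G849427 had a ratio of 0.891 and shared its locus with GRMZM2G588961 (ratio 2.34) and a further row, and the locus sum was 10086 RPKM in *lbl1* and 8865 RPKM in WT, a ratio of 1.14. GRMZM2G134957 was at 868 RPKM in *lbl1* and 699 RPKM in WT, and its partner GRMZM2G134980 at 490.2 RPKM in *lbl1* and 813 RPKM in WT. In each of these loci the member and its largest partner lay on opposite sides of a ratio of 1.

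The locus sum left the window for 3 members. GRMZM2G060106 (1150 RPKM in *lbl1* and 835 RPKM in WT) lies with GRMZM5G892124 (2054 RPKM in *lbl1* and 1133 RPKM in WT), and their summed ratio was 1.63. GRMZM2G151193 (366 RPKM in *lbl1* and 435 RPKM in WT) lies with GRMZM5G815470, which was listed at 0 in *lbl1* and at 129.8 RPKM in WT, and the summed ratio was 0.648. AC233866.1_FG006 (363 RPKM in *lbl1* and 399 RPKM in WT) lies with GRMZM5G896006 (15.0 RPKM in *lbl1* and 181 RPKM in WT), with a summed ratio of 0.652. On 5 loci both of the genes listed there are members. They include *his2b2* with GRMZM2G553422, which had 769 RPKM in *lbl1* and 749 RPKM in WT, and *HMGIY2* with GRMZM5G883072, which had 475 RPKM in *lbl1* and 477 RPKM in WT. In both of these pairs the chromatin gene had a ratio near 0.7 and the gene beside it a ratio near 1. The summed ratios were 0.896 for the *his2b2* locus and 0.861 for the *HMGIY2* locus.

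**Figure D5:**
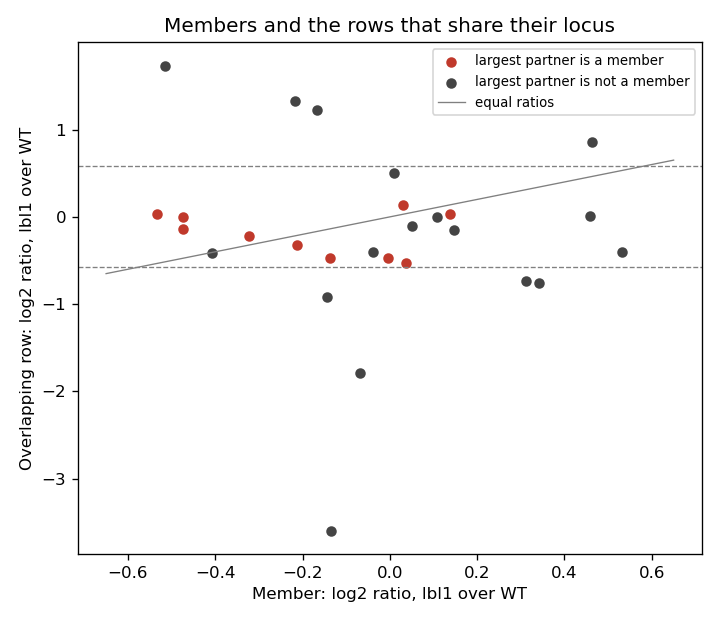
Log2 ratio, *lbl1* over WT, of the row with the highest WT RPKM that overlaps a member, against that of the member, for the 27 members whose overlapping rows held at least 10% of the WT RPKM of the locus and whose partner was above 0 in both genotypes. Points off the solid line have unequal ratios within a locus, and points beyond the dashed lines are partners outside the limits of 0.67 and 1.5.

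In 3 pairs of members both identifiers belong to the same RefSeq gene in the current annotation, although the older one places them on different chromosomes. GRMZM2G009412 on chromosome 7 had 702 RPKM in *lbl1* and 507 RPKM in WT, and GRMZM2G125527 on chromosome 2 had 670.3 RPKM in *lbl1* and 480.4 RPKM in WT. Their ratios of 1.384 and 1.395 were close. GRMZM2G096690 had 900.5 RPKM in *lbl1* and 755 RPKM in WT, and GRMZM5G805526 had 702 RPKM in *lbl1* and 648 RPKM in WT. GRMZM2G077991 had 715 RPKM in *lbl1* and 764 RPKM in WT, and GRMZM2G168674 had 361 RPKM in *lbl1* and 419 RPKM in WT. Other members are paired in this way with rows outside the group. GRMZM2G013457 had 656 RPKM in *lbl1* and 777 RPKM in WT, whereas its counterpart GRMZM5G863656 had 1065 RPKM in *lbl1* and 556 RPKM in WT, and their summed ratio was 1.29. Only uniquely mapped reads were counted, so any read that fits both copies is missing from these levels, and how many there were is not known here.

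The members lie on all 10 chromosomes. Chromosome 1 holds 42 of them (21.0%), compared with 15.7% of the rows with at least 1 RPKM in both genotypes, and chromosome 5 holds 15 (7.5%), compared with 12.3% of those rows. The median log2 ratio of the members ranged from −0.21 on chromosome 10, with 9 members, to 0.19 on chromosome 5. On chromosome 3, 5 of 19 members were higher in *lbl1*, and on chromosome 2, 13 of 17 were higher. No ratio over all expressed rows of a chromosome is given beside these values, so nothing is read from the medians and counts.

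Around *lbl1* on chromosome 6 the mutant may carry DNA of the plant in which the allele arose, and an effect of the mutation cannot there be told apart from one of that DNA. Within the first 60 Mb of the chromosome, 7 unnamed rows reached the level of the members, and 4 of these are members. GRMZM5G852185, which starts at 4892765, had 631 RPKM in *lbl1* and 558 RPKM in WT. GRMZM2G060106, at 8675727, had the ratio of 1.38 given above. GRMZM2G060373, at 22305548 and 5.14 Mb past the start of *lbl1*, had 543 RPKM in *lbl1* and 460 RPKM in WT. GRMZM2G385287, at 56216948, had 1009 RPKM in *lbl1* and 962 RPKM in WT. All 4 had a higher value in *lbl1*, as did 14 of the 23 members on the whole chromosome. Of the rows with at least 1 RPKM in both genotypes, 42.6% had a ratio above 1. Nothing is read from so small a count. The 3 rows outside the window were GRMZM5G892124 at a ratio of 1.81 and, 14.5 and 14.7 Mb past *lbl1*, GRMZM2G050412 (200.6 RPKM in *lbl1* and 407 RPKM in WT) and GRMZM2G163406 (265 RPKM in *lbl1* and 462 RPKM in WT). Over the whole table, 49 of the 249 unnamed rows at this level were outside the window. Of the named rows at this level in the stretch, RPP1A (ratio 1.34) and GAPC2 (ratio 1.16) were higher in *lbl1*, and RP-P0 (ratio 0.844) was lower.

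The status column of the table read FAIL for 5 members, which means that the authors' software could not complete its test for these rows. They are GRMZM2G031545, GRMZM2G124317, GRMZM2G078022, *hsp70-4* and GRMZM5G817178. *hsp70-4* and GRMZM5G817178 (715 RPKM in *lbl1* and 786 RPKM in WT) occupy the same locus. GRMZM2G078022 (934 RPKM in *lbl1* and 1086 RPKM in WT) overlaps GRMZM2G077943 (639 RPKM in *lbl1* and 255 RPKM in WT), whose ratio of 2.50 is outside the window.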

How the data were processed

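Messenger RNA of 2 *lbl1* and 2 WT apex samples was analysed; the small RNA libraries were not used here. The authors aligned trimmed reads to B73 RefGen_v2 with TopHat 1.2.0 (version per the submitters' processing notes) and the deposited table gives RPKM values computed from uniquely mapped reads by Cuffdiff 1.0.3, with a minimum of 50 alignments. Each RPKM value pools both libraries of a genotype, so the numbers of reads behind it are unknown, and no interval, SD or test is given. The table also holds the authors' fold changes, test statistics, p-values and q-values, which were not used. No column belonged to other samples (0 columns).

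Rows were selected and counted in Python 3.11.15 with pandas 2.3.3, and the Wilson interval was computed with scipy 1.17.1. The selection was tested on simulated data. The start of each locus was raised by 1, as the deposited coordinates begin at 0: among 13365 gene models of the AC type, end minus stated start was a multiple of 3 in 7960, compared with 2634 for the other convention. Ratios are *lbl1* over WT with no pseudocount, and rows with at least 1 RPKM in both genotypes serve as background. Names came from RefSeq synonyms (assembly Zm-B73-REFERENCE-NAM-5.0), with none of its coordinates used. The planned classes by gene description, promoter motifs and protein features were not analysed here, and 1 matched tissue marker is not reported here. Genes named in the text are the 10 highest members, those at the ends and middle of the ratio window and at rank 200, those on chromosome 6 up to 60 Mb, and, chosen after their values were seen, the members with a descriptive name, those in shared loci and family examples. The members and the lists were chosen with earlier results of these data known. Alternatives were the ranking column, the window, the list length, scaling, a pseudocount of 1 RPKM, named rows, overlapping rows and, chosen after seeing the data, rows with status FAIL and loci under 300 bases.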

Additional observations from a re-analysis of the deposited data

How the results depend on the processing

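The 13 alternatives run drew overlapping lists from the values that the rule itself used. The sign of the median is therefore not read as a result. The group's median log2 ratio was 0.0434 and was positive under all of them. It was 0.127 when members were ranked by *lbl1* RPKM, which favours rows that are higher in *lbl1*, and 0.0863 when ranked by the mean. It was 0.0240 with a window of 0.8 to its inverse and 0.0340 with a window of 0.5 to 2. It was 0.0106 with 400 members, 0.0295 with named rows allowed, 0.0492 without overlapping expressed rows and 0.0478 without rows of status FAIL. With ratios divided by the median ratio (log2 −0.10) it was 0.107, on a scale that lies higher than the others. The share of WT RPKM held by the group, 15.5%, was 15.3% when ranked by *lbl1* RPKM, 12.9% with the narrow window, 17.5% with the wide window, 17.8% with no window and 15.6% with scaled ratios. It was 10.8% with 100 members, 21.4% with 400, 19.8% with named rows, 12.5% without overlapping rows, 15.0% without FAIL rows and 15.4% without short loci. The share of ribosomal protein names among matched members, 3.16%, was 1.32% with the wide window, 1.35% with no window, 1.74% without overlapping expressed rows, 1.89% with 400 members and 7.74% with named rows allowed. With 100 members, 100 were shared with the list of 200, 55 were higher in *lbl1* and 45 lower, and with 400 members 208 were higher and 192 lower. Against 110 higher and 90 lower in *lbl1*, 136 were higher and 64 lower when ranked by *lbl1* RPKM, 123 and 77 when ranked by the mean, and 121 and 79 with ratios divided by the median ratio. The list shared 144 members with the one drawn without overlapping expressed rows, and 141 with the narrow window.

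No paired analysis was possible because each value pools the libraries of a genotype, and for the same reason none was left out. The authors' tests were not used, so no difference was set against the variation among samples.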

Other observations

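The median log2 ratio of unnamed rows depended on which genotype's level was used to group them. Grouped by *lbl1* RPKM it was −0.28 at 1 to 10 RPKM, −0.04 at 10 to 100 RPKM, 0.14 at 100 to 398 RPKM and 0.19 at 398 RPKM or more. Grouped by WT RPKM it was −0.08, −0.12, −0.04 and 0.04 in the same bins. The members were ranked on the WT value, and both groupings put the most abundant rows above the median of −0.10 over all rows with at least 1 RPKM in both genotypes. This was not particular to the most abundant rows. The other bins also lay above that median, except 1 to 10 RPKM grouped by *lbl1* RPKM and 10 to 100 RPKM grouped by WT RPKM.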
